A study of Homo sapiens with 2 samples.

Results

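MMP1-expressing cells of the breast cancer line MDA-MB-231 are described here. They were chosen by their own readout. A member had at least 2 MMP1 UMIs and fewer than 5 UMIs of the interferon-induced genes IFIT1, IFIT2, IFIT3 and OASL per 10000 UMIs. Kept cells had 9009 or more UMIs in the D0 library or 5422 or more in the D21 library, 500 or more genes, and no more than 20% mitochondrial UMIs. A UMI (unique molecular identifier) stands for 1 captured transcript molecule. This gave 1733 members among 19979 kept cells, 116 of 7492 at D0 and 1617 of 12487 at D21. The D0 library came from parental MDA-MB-231 cells kept in RPMI-1640 with 100 µM methionine. The D21 library came from revertant cells of the same line after 21 days in RPMI-1640 without methionine, with 100 µM L-homocysteine and 1.5 µM vitamin B12 (cyanocobalamin). Both media held dialyzed fetal bovine serum and penicillin-streptomycin. The study asked how gene expression differs after cells have been selected to grow on homocysteine. There was 1 library per condition, so no comparison between conditions or between cells could be tested against the variation of cultures. All 95% intervals below cover counting error only.

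MMP1 encodes interstitial collagenase, a secreted zinc protease that cleaves fibrillar collagen and that is made as an inactive proenzyme, activated by other proteases and held in check by the TIMP inhibitors. Its transcription in many cell types depends on AP-1 and ETS factors downstream of MAP kinase signalling. In MDA-MB-231 cells it is known as a gene of metastatic sublines. PDE1C encodes a calmodulin-dependent phosphodiesterase that degrades cyclic nucleotides, and SRGN encodes serglycin, the core protein of a proteoglycan stored in secretory granules and released from cells.

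The labelled cell line was checked by its markers. Members held the mesenchymal filament gene VIM at 4723 CPM in the D0 library and at 3522 CPM in the D21 library, and KRT81 at 135 and 307 CPM. CPM is the summed counts of a gene in a group of cells per 1000000 summed counts. The estrogen receptor gene ESR1 was at 0.253 and 0.428 CPM in members, the progesterone receptor gene PGR at 0 and 0.0714 CPM, and CDH1, the epithelial cadherin gene, at 0.253 and 0.607 CPM. The fibroblast and endothelial marker lists, of 5 and 4 genes, had no gene at 10 CPM or more over all kept cells of either library. COL1A1 was at 1.52 and 0.571 CPM and PECAM1 at 3.55 and 7.35 CPM in members. Of 7 leukocyte markers, CD68 and LAPTM5 reached that level, while the pan-leukocyte gene PTPRC was at 0.253 and 0.428 CPM. Members held 3947992 UMIs at D0 and 28022526 UMIs at D21. The libraries shared 21 cell barcodes, which none of the D0 members and 4 of the D21 members carried.

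The MMP1 gene lies on chr11:102789920-102798160 (GRCh38, minus strand), in a cluster of metalloproteinase genes. PDE1C lies on chr7:31751179-32299329 (minus strand) and SRGN on chr10:69088106-69104811 (plus strand). Members made up 1.55% of D0 cells (95% exact binomial interval 1.28 to 1.85%) and 12.9% of D21 cells (12.4 to 13.6%), a ratio of 8.36 (6.92 to 10.2). Depth differed between the libraries, with a median of 18908 UMIs per cell at D0 and 12022 at D21. After every cell had been thinned to 5422 UMIs, which kept all cells, 42 D0 cells (0.561%, 0.404 to 0.757%) and 964 D21 cells (7.72%, 7.26 to 8.20%) still met the rule. The ratio was then 13.8 (10.1 to 19.2). The difference in the share therefore lay in the direction opposite to the difference in depth.

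Within each library, deeper cells met the rule more often. In cells of 9009 to 15000 UMIs, 0.650% of D0 cells and 11.2% of D21 cells were members. In cells of 15000 to 25000 UMIs the shares were 1.18% and 15.3%, and in cells of 25000 to 40000 UMIs they were 2.80% and 21.1%. In cells of 40000 UMIs or more they were 2.94% (29 of 988 cells) and 28.1% (59 of 210 cells). The D21 to D0 ratio was 17.2 (10.4 to 31.0) in the shallowest of these ranges and 9.57 (6.04 to 15.5) in the deepest, and its lowest value, at 25000 to 40000 UMIs, was 7.55 (5.38 to 10.9). The 3552 D21 cells under 9009 UMIs, for which D0 has no counterpart, held 9.60% members.

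**Figure D1:**
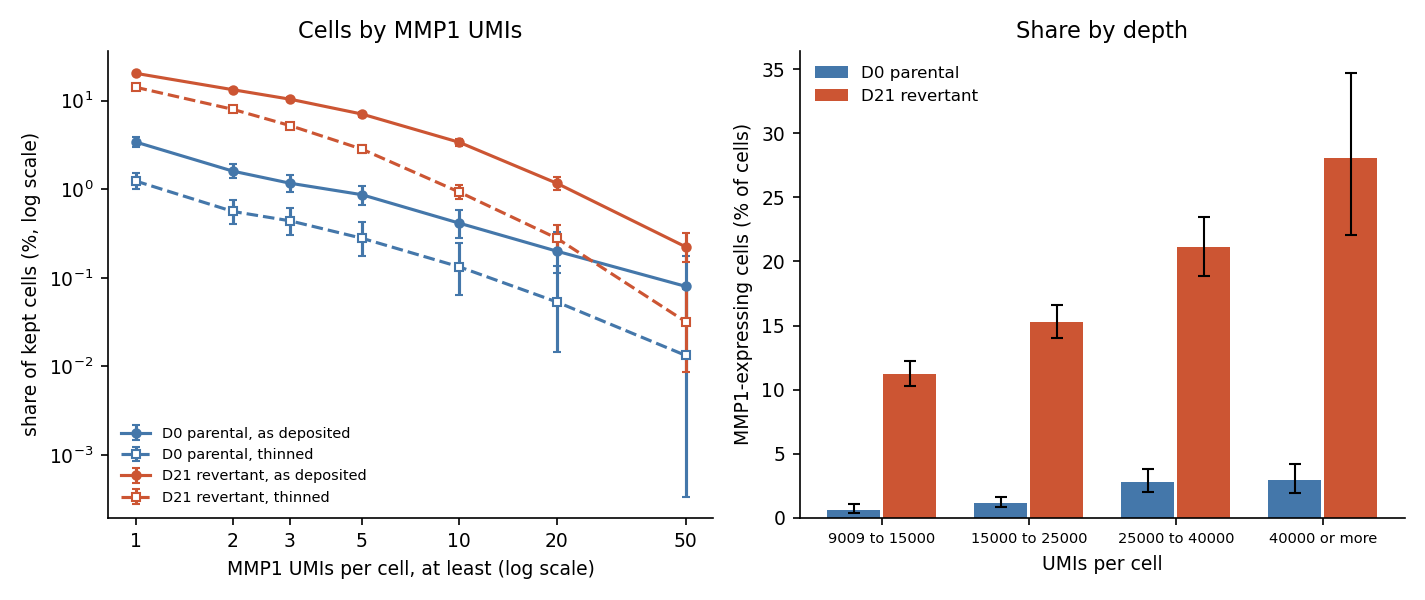
Left, share of all kept cells with at least 1 to 50 MMP1 UMIs (both axes on a log scale, no interferon limit) in the D0 and D21 libraries, with the counts as deposited (filled) and with every cell thinned to 5422 UMIs (open). Right, share of MMP1-expressing cells in 4 ranges of UMIs per cell, with D21 at 11.2 to 28.1% and D0 at 0.650 to 2.94%. Error bars are 95% exact binomial intervals for counting error.

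The values that chose the members are given as a description. MMP1 was detected in 256 D0 cells (3.42%) and was at 0 in 7236. It was at 1 UMI in 136 D0 cells, just outside the limit, and at 2 UMIs in 32, just inside it. At D21, 9944 cells (79.6%) had none, 877 had 1 UMI and 367 had 2. The interferon limit left out 4 D0 cells and 49 D21 cells that had at least 2 MMP1 UMIs. The median member had 5.00 MMP1 UMIs in either library, and the highest had 245 at D0 and 215 at D21. Members held 91.0% of all MMP1 UMIs at D0 and 92.5% at D21. The 10 highest cells held 51.2% of all MMP1 UMIs at D0 and 7.42% at D21, but 10 cells are a larger part of 116 members than of 1617. The upper quartile per member was 10.0 MMP1 UMIs in either library. Over all kept cells MMP1 stood at 9.24 CPM in the D0 and 84.9 CPM in the D21 library, a ratio of 9.19 (8.74 to 9.67). Within members it stood at 390 and 512 CPM, with a median per cell of 167 and 347 CPM. The rule asks for a fixed number of UMIs, so these levels depend on depth. The median depth of members was 27941 UMIs at D0 and 14321 at D21.

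RNA outside cells also held MMP1. In droplets of 10 to 100 UMIs it was at 19.1 CPM at D0 (81 UMIs) and 79.2 CPM at D21 (246 UMIs), or 2.06 (1.63 to 2.58) and 0.933 (0.819 to 1.06) of its level over all kept cells. A cell of median member depth made up only of such RNA would have held 0.533 MMP1 UMIs at D0 and 1.13 at D21. The ratio of MMP1 to SRGN was 0.931 and 2.46 in droplets and 4.05 and 4.11 in members. Members were chosen by their MMP1 UMIs, which raises this ratio in them, so it cannot show where their MMP1 came from. The part of free RNA in members near the limit of 2 UMIs was not tested.

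To see which genes went with MMP1, members were compared within each library with as many cells of 0 MMP1 UMIs, each taken as the unused cell nearest in total UMIs. Matching brought the median depth of the comparison cells to 27928 UMIs at D0 and 14319 at D21, against 27941 and 14321 in members and 18683 and 11646 in all cells without MMP1. Mitochondrial genes took a median of 5.25% of UMIs in members and 5.89% in matched cells at D0, and 6.31% and 6.53% at D21. A gene was measured if it had at least 10 CPM over all kept cells of either library, and it is called higher or lower if the ratio of members to matched cells was at least 1.5 or at most its inverse. Among 9179 measured genes other than MMP1, 258 (2.81%) were called higher and 388 (4.23%) lower at D0, and 215 (2.34%) higher and 139 (1.51%) lower at D21. At 10 CPM the counting interval of a ratio of 1 runs from 0.625 to 1.60 at D0, where the members are few, and from 0.844 to 1.18 at D21. A call at D0 of a gene near this level can therefore lie within counting error.

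SRGN and PDE1C were the genes known beforehand to go with MMP1 in these libraries. SRGN was at 96.3 CPM in D0 members and 38.8 CPM in matched cells, a ratio of 2.48 (2.05 to 3.02), and at 125 and 34.7 CPM at D21, a ratio of 3.59 (3.35 to 3.86). SRGN had a UMI in 61.2% of D0 members and 31.9% of matched cells, and in 58.4% and 27.6% at D21. PDE1C was below 10 CPM over all kept cells of both libraries and so was not among the measured genes. It was at 29.4 CPM in D0 members and 9.38 CPM in matched cells, a ratio of 3.13 (2.15 to 4.67). At D21 it was at 31.0 and 2.21 CPM, a ratio of 14.0 (10.8 to 18.5). PDE1C had a UMI in 46 of 116 D0 members and in 420 of 1617 D21 members, against 13 and 42 of as many matched cells. The level of PDE1C in members was thus similar in both libraries, while its level in matched cells differed. At least 1 of PDE1C and SRGN was seen in 66.4% of D0 members and 61.8% of D21 members, against 37.1% and 28.7% of matched cells. In the same members thinned to 5422 UMIs, SRGN had a UMI in 28.4% of D0 members (20.5 to 37.6%) and 11.2% of matched cells (6.10 to 18.4%). When members were also chosen anew from the thinned counts, which left 42 at D0, the log2 ratio of SRGN at D0 was 0.14 in place of 1.31. That setting changes the depth and the cells together.

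The levels of these genes differed with the number of MMP1 UMIs in a cell. At D21, SRGN was at 33.9 CPM in cells without MMP1, 52.2 CPM with 1 UMI, 89.9 CPM with 2 or 3, 124 CPM with 4 to 9 and 168 CPM (159 to 177) with 10 or more. AFF3 was at 22.3, 52.6, 93.7, 118 and 151 CPM in the same classes. PDE1C was at 2.46, 11.4, 26.7, 32.5 and 34.5 CPM. Cells with a single MMP1 UMI, which the rule left out, lay between the others for these genes at D21. At D0 the order was less regular. SRGN was at 24.8, 62.8, 93.5 and 116 CPM up to 9 UMIs and at 62.6 CPM (46.3 to 82.8) in cells with 10 or more, a class of 31 cells. PDE1C was at 6.85, 32.8, 18.0, 46.4 and 19.2 CPM, and AFF3 at 56.2, 115, 94.1, 121 and 106 CPM, so that both were lower with 2 or 3 UMIs than with 1. ZNF804A, a zinc finger protein gene, was at its highest in the top class, at 133 CPM against 20.5 CPM in D0 cells without MMP1. The share of cells with a ZNF804A UMI did not follow at D0. It was 60.0% with 4 to 9 MMP1 UMIs and 48.4% with 10 or more, against 38.4% and 49.5% at D21.

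**Figure D2:**
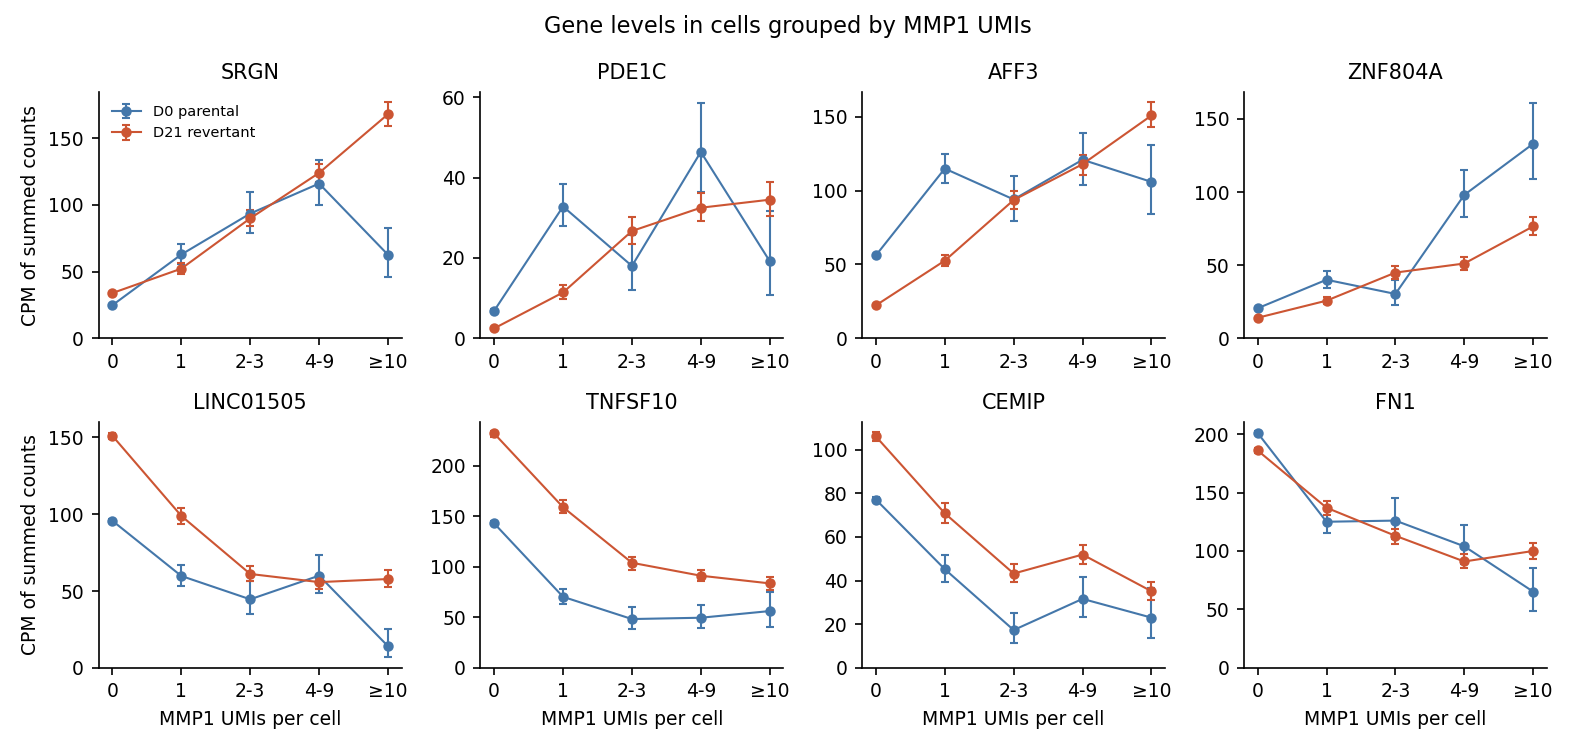
CPM of 8 genes (linear axes from 0) in cells grouped by their MMP1 UMIs, D0 in blue and D21 in red, with 95% counting intervals. In the D21 cells SRGN runs from 33.9 to 168 CPM and AFF3 from 22.3 to 151 CPM across the classes, while TNFSF10 runs from 232 to 83.6 CPM and LINC01505 from 151 to 57.8 CPM.

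Genes with clone-type names were not named by rule, but 1 of them, AC044810.2, had the highest D21 ratio of the measured genes whose ratio was above 1.5 in both libraries, and it was singled out after its values were seen. It was at 20.3 CPM in D0 members and 4.56 CPM in matched cells (4.44, 2.64 to 7.87), and at 34.3 and 3.71 CPM at D21 (9.24, 7.54 to 11.4). Among genes with other names, the 12 with the highest ratio common to both libraries were SRGN and the 11 described next. ZNF804A was at 77.3 CPM in D0 members and 16.5 CPM in matched cells, a ratio of 4.69 (3.58 to 6.23), and at 56.1 and 13.8 CPM at D21, a ratio of 4.06 (3.63 to 4.55). A single D0 member held 21.3% of the ZNF804A UMIs of all D0 members, and without the highest cell on either side the ratio was 4.36. AFF3, a nuclear protein of the AF4/FMR2 family, was at 107 and 40.0 CPM at D0 (2.67, 2.22 to 3.23) and at 119 and 19.3 CPM at D21 (6.15, 5.62 to 6.75). FGF5, a fibroblast growth factor, was at 27.6 and 12.2 CPM at D0 (2.27, 1.60 to 3.26) with a ratio of 3.66 (3.05 to 4.40) at D21. HHIP, which binds hedgehog ligands and blocks them, had ratios of 2.83 (1.85 to 4.45) and 2.54 (2.22 to 2.91). ROBO1, a receptor of Slit guidance proteins, had ratios of 2.05 (1.38 to 3.11) and 4.12 at D0 and D21. The adhesion molecule gene NCAM2 had ratios of 2.55 and 2.21, with 35.0% of its UMIs in D0 matched cells coming from 1 cell.

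The remaining genes of this set encode an enzyme, a protease, a nuclear receptor and proteins of less known function. FBP1, the fructose-1,6-bisphosphatase of gluconeogenesis, was at 35.2 CPM in D0 members against 12.4 CPM in matched cells, and at 24.7 against 11.1 CPM at D21. PRSS3, which encodes mesotrypsin, was at 90.9 against 39.3 CPM at D0 and 99.5 against 39.1 CPM at D21. It has close relatives, so the split of reads between PRSS3 and PRSS2 is uncertain. NR2F1, an orphan nuclear receptor, had ratios of 2.17 and 2.89, and SAMD12 and TMEM156 had ratios of 2.24 and 2.22 at D0 and 2.95 and 2.79 at D21. All 12 genes kept a ratio above 1.5 in each library when every gene was taken without the cell that held most of its UMIs. Their D0 ratios depend on which cells were matched. Over all D0 cells without MMP1, the genes other than SRGN and SAMD12 were above their level in matched cells. AFF3 was at 56.2 against 40.0 CPM, HHIP at 11.4 against 7.60 CPM and FBP1 at 17.4 against 12.4 CPM. SRGN went the other way, at 24.8 against 38.8 CPM, as did SAMD12, at 22.7 against 24.1 CPM. With the 42 D0 members chosen anew from thinned counts, FGF5 and SAMD12 had log2 ratios of 0.32 and 0.15 at D0, below the fold of 1.5. In the 116 D0 members thinned, FGF5 had a UMI in 7.76% against 9.48% of matched cells.

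The genes with the lowest common ratio included those of a death ligand, a hyaluronan-binding protein and a cytokine receptor. TNFSF10, which encodes the death ligand TRAIL, was at 50.4 CPM in D0 members and 155 CPM in matched cells (0.324, 0.275 to 0.381), and at 93.4 and 221 CPM at D21 (0.423, 0.404 to 0.443). CEMIP, which encodes a hyaluronan-binding protein needed for hyaluronan breakdown, was at 24.1 and 95.5 CPM at D0 (0.252, 0.199 to 0.316) and at 44.2 and 102 CPM at D21 (0.432, 0.404 to 0.462). At D0, 1 cell held 27.1% of the CEMIP UMIs of matched cells, and without the highest cell on either side the ratio was 0.305. With the 42 D0 members chosen anew from thinned counts the log2 ratio of CEMIP at D0 was 0.00, while in the 116 members thinned it had a UMI in 6.90% (3.02 to 13.1%) against 17.2% (10.9 to 25.4%) of matched cells. The long noncoding RNA LINC01505 was at 44.6 and 118 CPM at D0 and at 58.2 and 156 CPM at D21. ABCA1, the cholesterol efflux transporter, had ratios of 0.425 and 0.415, the cytochrome CYP1B1 0.486 and 0.442, and the interleukin-1 receptor IL1R1 0.315 and 0.416. FLG, the filaggrin gene, had ratios of 0.386 and 0.424, but 1 cell held 47.7% of its UMIs in D0 members. FOXP4-AS1 had ratios of 0.462 and 0.486.

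The calls of the libraries overlapped in part. Of the genes called higher, 77 were called in both, which is 29.8% of the D0 calls and 35.8% of the D21 calls. Of those called lower, 81 were called in both, which is 20.9% of the D0 calls and 58.3% of the D21 calls. Of the 215 genes called higher at D21, 87.0% had a ratio above 1 at D0, as 44.8% of all measured genes did. Of the 139 called lower at D21, 94.2% had a ratio below 1 at D0, as 55.2% of all measured genes did. No test of this overlap was made.

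**Figure D3:**
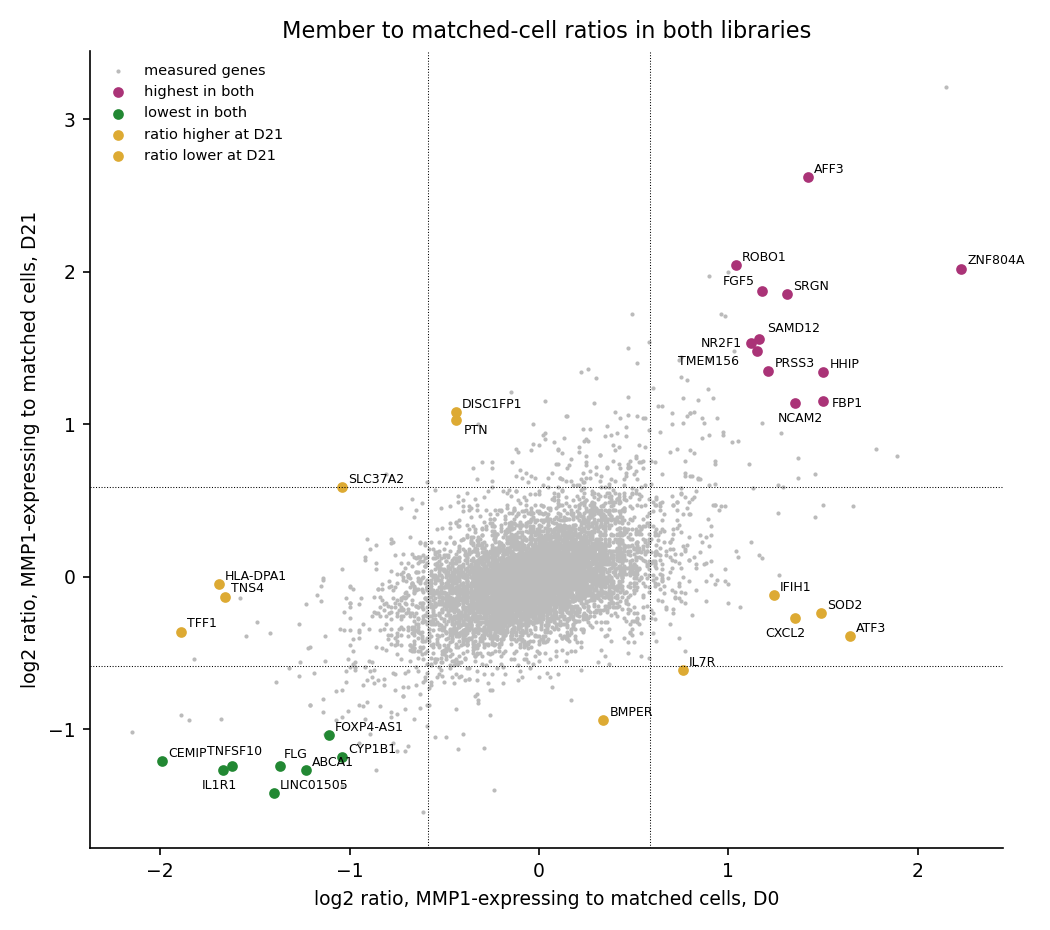
Log2 ratio of MMP1-expressing to matched cells at D0 (x axis) and at D21 (y axis) for each measured gene other than MMP1 (grey), with dotted lines at a fold of 1.5. The genes named for a high ratio in both libraries (purple) lie at the upper right, with AFF3 at 1.42 and 2.62, those named for a low ratio (green) lie at the lower left, with CEMIP at -1.99 and -1.21, and yellow marks genes named for a ratio that differed between the libraries. The grey point above AFF3 is AC044810.2.

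Some ratios differed between the libraries, though no difference was tested. The manganese superoxide dismutase gene SOD2 was at 93.2 CPM in D0 members and 33.2 CPM in matched cells (2.81, 2.29 to 3.45), but at 60.1 and 71.0 CPM at D21 (0.847). ATF3, a stress-induced transcription factor, was at 13.4 and 4.31 CPM at D0 (3.12, 1.78 to 5.74) and at 7.53 and 9.85 CPM at D21 (0.764). The chemokine CXCL2 had ratios of 2.54 and 0.828 and the RNA sensor IFIH1 2.36 and 0.922. Over all D0 cells without MMP1, SOD2 was at 40.2 CPM, ATF3 at 9.16 CPM, CXCL2 at 7.95 CPM and IFIH1 at 4.36 CPM. For SOD2, ATF3 and IFIH1 this lies above the level in matched cells, so their D0 ratios depend on which cells were matched. For SOD2, 28.3% of the UMIs of D0 members came from 1 cell. For CXCL2, 1 cell held 40.0% of the 35 UMIs of D0 matched cells. In the other direction, the secreted factor PTN had ratios of 0.737 and 2.05 and the MHC class II gene HLA-DPA1 0.311 and 0.966. The trefoil gene TFF1 had ratios of 0.270 and 0.781 and the focal adhesion gene TNS4 0.317 and 0.917.

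MMP1 was the only gene of the 9 in the chromosome 11 metalloproteinase cluster to be measured. Its neighbour MMP3, which encodes stromelysin-1, was at 1.01 CPM in D0 members (4 UMIs) and 1.03 CPM in D21 members (29 UMIs), against 0 and 0.107 CPM (3 UMIs) in matched cells. The ratio of MMP3 at D21 was 9.66 (3.00 to 49.6). MMP10 had 10 UMIs in D21 members and MMP13 had 6, against 0 in matched cells for each, and at D0 they had 0 and 1 in members and 0 in matched cells. These 3 genes of the cluster thus lay on the same side as MMP1 at D21, at levels close to the limit of detection. MMP7 and MMP20, at similar levels, lay on the other side. At D21, MMP7 had 2 UMIs in members against 7 in matched cells, and MMP20 had 10 against 13. At D0, MMP20 had 0 against 5. Genes on either side of the cluster were level, with BIRC2 at 77.3 CPM in D0 members against 74.0 CPM in matched cells and DCUN1D5 at 166 against 163 CPM at D21. Of 10 other measured metalloproteinases, 1 was called higher (ADAMTS6, 1.88) and 1 lower (ADAM10, 0.591) at D0, and only ADAMTS15 was called lower (0.636) at D21. ADAMTS6 was at 34.7 CPM in D0 members, 18.5 CPM in matched cells and 28.3 CPM in all D0 cells without MMP1. The membrane metalloproteinase MMP14 had ratios of 1.18 and 1.38. Of 4 measured inhibitors none was called, with TIMP1 at 964 against 775 CPM at D0 and 987 against 789 CPM at D21, and TIMP2 at ratios of 1.24 and 1.26. In the plasmin system, which can activate pro-MMP1, 2 of 8 genes were called higher in each library, beside 2.81% and 2.34% of all measured genes. The inhibitor gene SERPINE2 was called in both, at ratios of 1.92 and 2.06. PLAUR, the urokinase receptor, was called at D0 (1.52) and PLAT, tissue plasminogen activator, at D21 (1.51), while PLAU, urokinase itself, had ratios of 0.818 and 1.10.

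Among AP-1, ETS and RUNX genes, only RUNX2 was called in both libraries. Of 9 measured AP-1 genes, 3 were called higher at D0 (ATF3, JUNB at 1.74 and MAFF at 1.71) and none at D21. Of all measured genes, 2.81% were called higher at D0 and 2.34% at D21. The D0 ratio of ATF3 depends on the cells matched, as given above. Whether these factors account for MMP1 in members was not tested. FOSL1 was at 288 against 263 CPM at D0 and 245 against 273 CPM at D21, and JUN had ratios of 1.05 and 0.943. Of 9 ETS and RUNX genes, RUNX2 was called lower in both libraries (0.400 and 0.658), ETS2 was called lower (0.597) and ETV1 higher (1.64) at D21, and ETS1 had ratios of 1.11 and 1.08. Feedback genes that MAP kinase signalling induces lay above matched cells. Of 12 such genes, 11 had a ratio above 1 at D0 and 10 at D21, with 1 and 5 called higher, none lower, and median log2 ratios of 0.30 and 0.47 beside -0.03 and -0.02 over all measured genes. DUSP6, a phosphatase of ERK, was at 253 CPM in D21 members and 139 CPM in matched cells (1.82), and SPRY1 at 38.1 and 19.3 CPM (1.97). SPRY1 and DUSP6 had ratios of 1.37 and 1.31 at D0. EGFR had ratios of 1.13 and 1.18, and its ligands EREG and AREG had ratios of 0.537 and 0.688 at D0 and 0.684 and 0.937 at D21, where none of the list was called.

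The promoters of genes called in both libraries were searched for the motif TGANTCA, where N is any base. It is looser than the AP-1 consensus TGA(C/G)TCA and reads the same way on both strands. The RefSeq windows of GRCh38.p14 run from 250 bases before to 50 after each gene start. The table held 55 of the 77 genes called higher in both and 51 of the 81 called lower in both. The motif was present for 6 of the 55 (10.9%) and 9 of the 51 (17.6%), against 6.64% of measured genes and 9.33% of all genes in the table. It was found for PRSS3, TMEM156, LAMB3 and TFPI2 among the former and for FLG and RUNX2 among the latter, and not for ZNF804A, AFF3, FGF5, HHIP or PDE1C. Windows of 3 genes with large ratios are printed 5′ to 3′ on the strand of the gene, with the motif in capitals. PRSS3 and FLG hold TGAATCA, which lies outside the narrower consensus, and TMEM156 holds TGACTCA. PRSS3 (chr9:33795311-33795610, plus strand) and TMEM156 (chr4:39032360-39032659, minus strand) were called higher, and FLG (chr1:152325190-152325489, minus strand) lower. The PRSS3 window lies inside the gene, whose first base is at position 33750466.
PRSS3: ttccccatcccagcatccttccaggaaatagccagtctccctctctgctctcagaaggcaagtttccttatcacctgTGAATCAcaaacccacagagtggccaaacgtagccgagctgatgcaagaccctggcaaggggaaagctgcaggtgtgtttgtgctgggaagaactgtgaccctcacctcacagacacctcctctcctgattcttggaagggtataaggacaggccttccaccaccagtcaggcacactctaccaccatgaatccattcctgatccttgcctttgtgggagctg
TMEM156: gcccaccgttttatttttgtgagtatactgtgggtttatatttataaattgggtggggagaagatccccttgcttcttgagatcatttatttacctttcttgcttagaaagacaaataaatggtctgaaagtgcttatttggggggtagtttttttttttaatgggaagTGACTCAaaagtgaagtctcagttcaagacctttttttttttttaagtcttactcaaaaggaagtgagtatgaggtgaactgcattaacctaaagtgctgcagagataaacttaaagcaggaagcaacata
FLG: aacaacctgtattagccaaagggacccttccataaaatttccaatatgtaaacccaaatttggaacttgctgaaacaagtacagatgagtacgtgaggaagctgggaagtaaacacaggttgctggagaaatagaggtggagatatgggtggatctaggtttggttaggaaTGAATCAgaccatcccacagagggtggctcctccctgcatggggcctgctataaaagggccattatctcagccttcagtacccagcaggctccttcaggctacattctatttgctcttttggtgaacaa

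Genes linked to metastasis of this line were tabulated as lists from general knowledge. Calls between members and matched cells in this and later lists stand beside those over all measured genes. These were 2.81% higher and 4.23% lower at D0, and 2.34% and 1.51% at D21. Of the bone metastasis list, 6 genes other than MMP1 were measured, and 5 were called higher at D0 and 3 at D21, with none lower. Beside SRGN and FGF5, these were the growth factor CCN2 (218 against 132 CPM at D0 and 152 against 85.4 CPM at D21) and, at D0, IL11 (2.23) and DUSP1 (1.97). IL11 and DUSP1 had ratios of 1.10 and 0.976 at D21. The list holds SRGN, which was known to go with MMP1, so its median is no independent result. Of the lung metastasis list 8 genes were measured, with none called higher and 3 called lower at D0 and 2 at D21.

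Most measured collagen genes had lower levels in members than in matched cells, while the most abundant was not called in either library. Of 10 measured collagen genes 6 were called lower in each library, with 1 called higher at D21, and the median log2 ratio was -0.65 at D0 and -0.72 at D21. Raising the minimum level to 20 CPM gave medians of -0.39 and -0.33. COL8A1, the most abundant, was at 266 against 198 CPM at D0 (1.35) and 343 against 359 CPM at D21 (0.954), and the summed level of the list was 610 against 660 CPM and 591 against 648 CPM. COL5A1 was at 24.8 against 57.3 CPM at D0 and 19.8 against 35.5 CPM at D21, and COL18A1 at 44.6 against 90.0 CPM and 22.8 against 42.0 CPM. Fibronectin (FN1) was at 106 against 245 CPM at D0 and 101 against 181 CPM at D21. COL13A1, a transmembrane collagen, was at 106 against 63.1 CPM at D21 (1.67) and had a ratio of 1.07 at D0. Fibrillar substrates of the enzyme itself were scarce, with COL1A1 and COL3A1 at 1.52 CPM or less in members of both libraries. LAMB3, which encodes a laminin beta chain, was at 141 against 83.6 CPM at D0 (1.69) and 107 against 53.3 CPM at D21 (2.01). LAMA3, a laminin alpha chain gene, had ratios of 0.560 and 0.912. Among integrins 1 of 9 was called, the collagen-binding subunit ITGA2 at D21 (171 against 103 CPM, 1.67), which had a ratio of 1.34 at D0.

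Members leaned toward the cell state marked by AGR2 and SPANXB1 and away from the state marked by CEMIP and serum amyloid A, lists taken from earlier clustering of these cells. Of the 6 genes of the former, 1 was called higher at D0 and 5 at D21, with median log2 ratios of 0.44 and 1.11. The gene called at D0 was AFF3, already described, and AGR2 itself, a protein disulfide isomerase gene, had ratios of 1.39 and 1.65. At D0, 1 cell held 42.8% of the AGR2 UMIs of matched cells. Without the highest cell on either side the D0 ratio of AGR2 was 2.25. SOX4, a transcription factor, had ratios of 0.692 and 1.02. CST1, a secreted cystatin, was at 609 against 289 CPM at D21 and 519 against 394 CPM at D0, and SPANXB1 at 226 against 103 CPM and 351 against 287 CPM. Of the 7 genes of the latter, 6 were called lower in each library, with medians of -1.07 and -0.94. SAA1 was at 75.0 against 165 CPM at D0 and 292 against 540 CPM at D21. With cells thinned, the AGR2 genes had more UMIs than the CEMIP genes in 72.4% of D0 members (63.3 to 80.3%) and 46.6% of matched cells (37.2 to 56.0%), and in 65.6% (63.2 to 67.9%) and 28.4% (26.3 to 30.7%) at D21. This count used only a part of each list, which summed to 753 and 184 CPM in D0 members against 1272 and 198 CPM for the full lists. For the AGR2 genes the gap equals the level of CST1. The state was not shared by all members, since the CEMIP genes led in 12.9% of D0 members and 21.7% of D21 members. Cystatins went the same way, with CST2 at ratios of 1.97 and 3.27 and CST4 at 1.74 and 2.09. These paralogs are alike in sequence and the split of their reads is uncertain, as it is for SAA1 and SAA2.

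**Figure D4:**
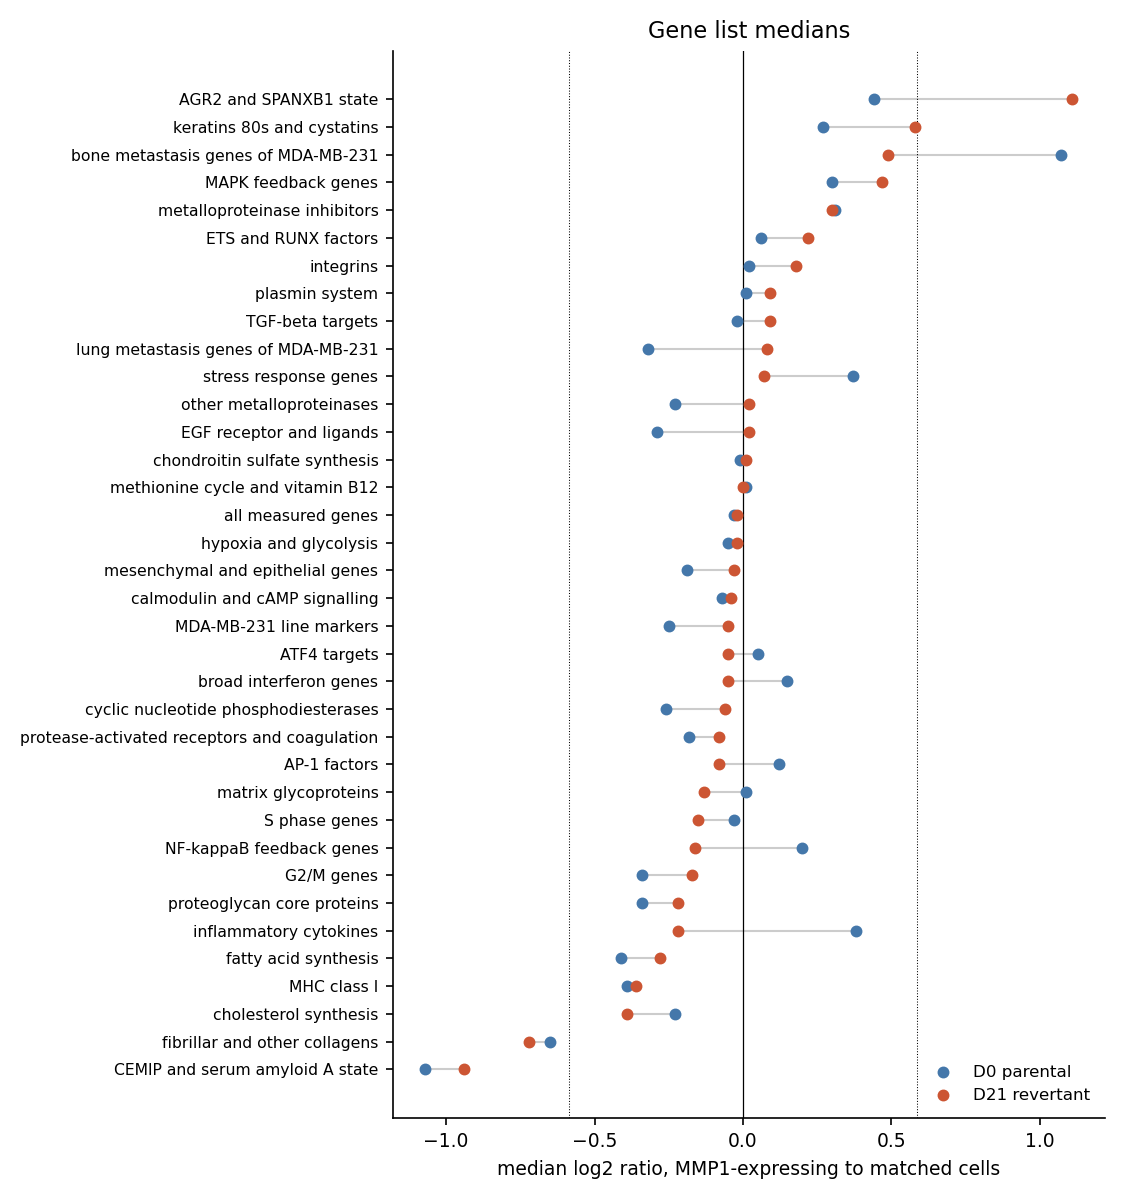
Median log2 ratio of MMP1-expressing to matched cells over the measured genes of each list at D0 (blue) and D21 (red), for the 35 lists with at least 3 measured genes other than MMP1 and for all measured genes, with dotted lines at a fold of 1.5. The AGR2 and SPANXB1 state (0.44 and 1.11) and the CEMIP and serum amyloid A state (-1.07 and -0.94) lie at the ends.

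Genes of antigen presentation and cell division had median log2 ratios below that of all measured genes, at -0.39 and -0.36 for MHC class I presentation and at -0.34 and -0.17 for G2/M phase. Of 15 MHC class I presentation genes, a ratio below 1 was found for 12 at D0 and 13 at D21, and 3 and 2 of these were called, with HLA-B at 562 against 794 CPM and 609 against 984 CPM. All 16 G2/M genes had a ratio below 1 at D0 and 14 at D21, with none called. Their summed level was 2506 CPM in D0 members and 3181 CPM in matched cells, and 2660 and 2967 CPM at D21. In the 31 D0 members with 10 or more MMP1 UMIs it was 1401 CPM, and in the 414 D21 members with as many it was 2588 CPM. The part of cell cycle phase in the other ratios was not tested. Cholesterol synthesis genes had median log2 ratios of -0.23 and -0.39, with none of 22 called at D0 and 2 called lower at D21 (HMGCS1 at 0.617 and FDFT1 at 0.650). Of 12 fatty acid synthesis genes 1 was called lower at D0 (ACSS2, 0.590) and 2 at D21 (SCD, 0.615, and ME1, 0.631).

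Genes of methionine metabolism had median log2 ratios of 0.01 and 0.00 between members and matched cells. Of 14 measured genes of the methionine cycle and vitamin B12 handling, CTH (1.85) was called higher and the transporter ABCC1 (0.622) lower at D0, and none was called at D21. MTR, methionine synthase, had ratios of 0.751 and 1.05, and CD320, the receptor for transcobalamin-bound vitamin B12, 1.43 and 1.47. Of 14 ATF4 targets, 3 were called higher at D0 (SLC3A2 at 2.09, DDIT3 at 1.88 and SESN2 at 1.54) and 1 lower at D21 (SLC7A5, 0.658). The phosphodiesterase and calmodulin lists did not follow PDE1C. Of 8 other measured phosphodiesterases, PDE7B was called lower in both libraries (0.542 and 0.631) and PDE4D was called higher at D21 (1.50), and none of 11 calmodulin and cyclic AMP genes was called. Nor did other proteoglycan core proteins follow SRGN. Of the other 8 measured, none was called higher, and CD44 was at 290 against 346 CPM at D0 and 365 against 426 CPM at D21. Of 12 chondroitin sulfate synthesis genes, CSGALNACT2 was called higher at D0 (1.56), and CSGALNACT1 and CHST15 were called lower in both libraries.

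Several inflammatory and stress genes were called at D0 and not at D21, a difference that was not tested. Of 6 measured cytokine genes, CXCL8, CXCL2 and IL11 were called higher at D0 (2.83, 2.54 and 2.23), and at D21 none was called higher and IL6 was called lower (0.490). Of all measured genes, 2.81% were called higher at D0 and 1.51% lower at D21. Among 9 genes of NF-kappaB feedback, SOD2 was called higher and TNFAIP2 (0.647) lower at D0, with no call at D21. HSPA1A, a heat shock protein gene, had ratios of 1.64 and 0.844, while GDF15, a stress-induced cytokine, was called higher in both, at 2.44 and 1.51. Of 16 hypoxia and glycolysis genes, only ADM was called (1.90 at D0), and of 16 S phase genes only UHRF1 (0.651 at D0). ADM was at 25.1 CPM in D0 members, 13.2 CPM in matched cells and 18.9 CPM in all D0 cells without MMP1. Of 10 measured interferon genes outside the rule's limit, IRF9 was called higher at D0 (1.95) and none at D21. In coagulation, the protease inhibitor TFPI2 was called higher in both libraries (112 against 30.4 CPM at D0 and 71.8 against 41.5 CPM at D21), and tissue factor (F3) was called lower at D21 (0.625). F2RL1, a protease-activated receptor, had ratios of 0.602 and 0.767. The transcription factor SNAI2 was called lower in both libraries (0.565 and 0.610), and the cadherin CDH11 higher at D21 (1.96).

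Neighbouring genes called the same way in both libraries were listed for spans of up to 500000 bases. FGF5 (chr4:80266599-80336680) and CFAP299 (chr4:80335720-80963756), both on the plus strand, overlap, so reads near their border cannot be assigned with certainty. Across the MMP1 classes at D21, CFAP299 was at 10.2, 16.6, 24.7, 32.8 and 53.7 CPM. HHIP overlaps HHIP-AS1 on the other strand, and the strand setting of the counting was not stated in the sources read. Other pairs called higher were CST4 with CST2, LAMB3 with G0S2, GDF15 with ELL, ARMCX1 with ARMCX3 and BEX2 with TCEAL1, and CEMIP was called lower together with ARNT2. Chromosome medians of the log2 ratio ran from -0.15 to 0.07 at D0 and from -0.15 to 0.13 at D21, with chromosome 7 at -0.15 in both. Chromosomes 4 and 7 were picked after the counts of all chromosomes were seen, and their difference from the rest was not tested. Of all measured genes, 2.81% were called higher and 4.23% lower at D0, and 2.34% and 1.51% at D21. Of 370 measured genes on chromosome 4, 20 were called higher and 6 lower at D0, and 22 higher and 3 lower at D21. Of 458 on chromosome 7, 13 were called higher and 45 lower at D0, and 8 higher and 11 lower at D21.

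The members of the libraries were then compared with each other, beside the same comparison in matched cells without MMP1. Of 9179 genes, 328 (3.57%) were called higher in D21 members than in D0 members and 478 (5.21%) lower. The genes with the lowest D21 to D0 ratios in members were also lower at D21 in matched cells. INSIG1, a sterol-regulated inhibitor of lipid synthesis, was at 26.8 CPM in D21 members and 91.7 CPM in D0 members (0.292, and 0.312 in matched cells), and HES1, a Notch target, at 28.6 and 88.9 CPM (0.322 and 0.371). C6orf223, AKR1C3, SLC29A2 and SEMA6B had ratios of 0.102, 0.296, 0.301 and 0.294 in members and 0.0845, 0.396, 0.476 and 0.261 in matched cells. Of 22 cholesterol synthesis genes 18 were called lower in D21 members, with a median log2 ratio of -0.92, and 17 were called lower in matched cells, with a median of -0.78. Of all measured genes, 2.64% were called higher and 5.84% lower in matched cells. DHCR7, which makes cholesterol from its last precursor, was at 19.2 against 54.2 CPM.

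On the higher side, the acute-phase gene SAA1 was at 292 CPM in D21 members and 75.0 CPM in D0 members (3.89, and 3.27 in matched cells), and SAA2 at 94.1 and 25.3 CPM (3.72 and 5.29). The trypsinogen gene PRSS2 was at 97.2 and 19.5 CPM (4.98 and 4.16), LRRC75A at 108 and 32.4 CPM (3.33 and 2.82) and TMEM238 at 20.3 and 6.33 CPM (3.21 in each). The noncoding genes DISC1FP1, MAGI1-AS1 and ZNF451-AS1 had ratios of 6.24, 3.25 and 2.88 in members and 2.17, 1.17 and 1.49 in matched cells. DISC1FP1 was at 3.55 CPM in D0 members, where 1 cell held 35.7% of its UMIs. AFF3 differed less between the libraries in members than in matched cells. It was at 107 CPM in D0 members and 119 CPM in D21 members, while it was at 40.0 and 19.3 CPM in matched cells. ROBO1 had a D21 to D0 ratio of 1.54 in members and 0.767 in matched cells, and FGF5 0.724 and 0.449. With 1 culture per condition, a change within cells and a change in which cells were present cannot be told apart.

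**Figure D5:**
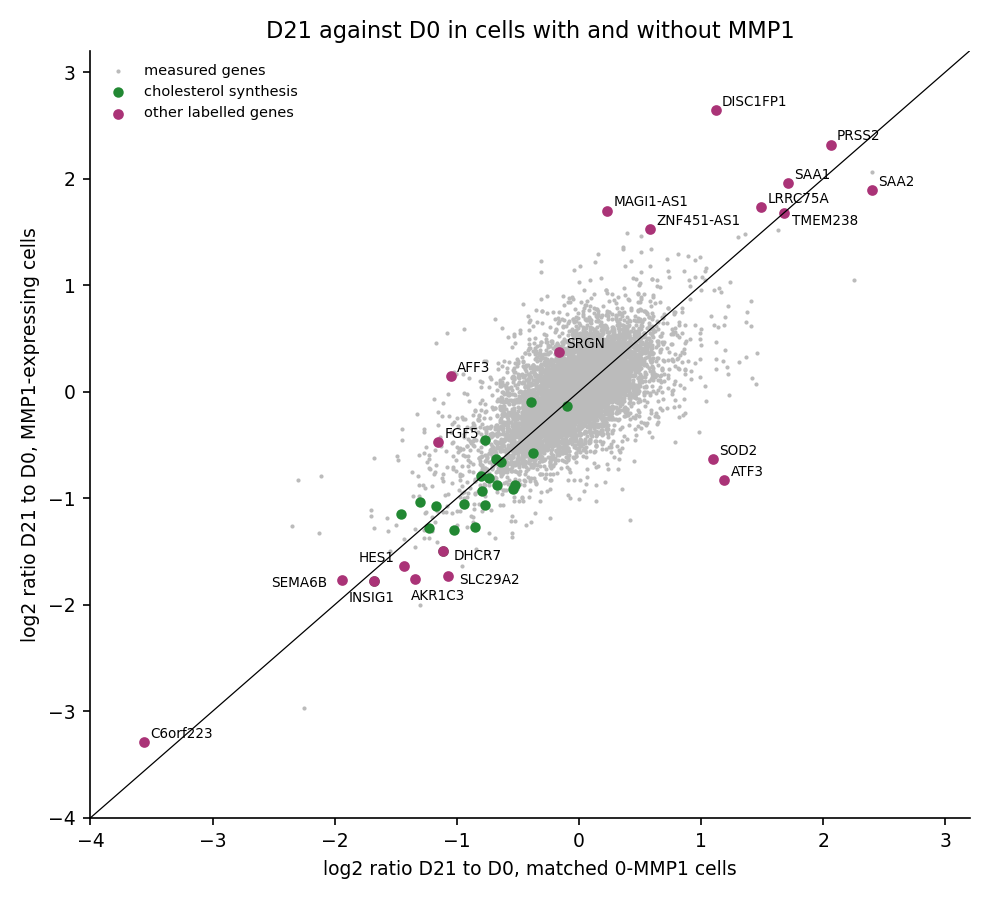
Log2 ratio of D21 to D0 in matched 0-MMP1 cells (x axis) and in MMP1-expressing cells (y axis) for each measured gene other than MMP1, with cholesterol synthesis genes in green, genes discussed in the text in purple and the line of equal ratios. Cholesterol synthesis genes lie below 0 on the y axis, and AFF3, at 0.15 in members and -1.05 in matched cells, lies above the line.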

How the data were processed

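Single-cell libraries of D0 parental and D21 revertant MDA-MB-231 cells, 1 of each, were compared. The deposited matrices hold raw UMI counts for each gene in each barcode, empty droplets included, made by the authors with Cell Ranger 4 against GRCh38 (per the submitters' notes). The libraries were 10x 3' v3.1. The sources read do not state the annotation release. Totals were 199799447 and 199817213 UMIs.

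A barcode was kept as a cell if it reached 10% of the 99th percentile, in UMIs, among the top 5000, and had 500 or more genes and no more than 20% mitochondrial UMIs. Doublets were kept, and an alternative left out the 10% of cells with the most UMIs. The members and the gene lists were chosen with earlier results of these data known. The 39 lists were written from general knowledge, and those of the AGR2 and CEMIP states come from earlier clustering of these cells. Members were matched to cells of 0 MMP1 UMIs on total UMIs, counts were summed, and ratios of CPM were given exact conditional intervals and shares exact binomial (Clopper-Pearson) intervals at 95%. A ratio was left out where either side had fewer than 3 UMIs. UMIs of 1 cell are not independent, so that the true error is larger. No p-value was computed. Thinning drew 5422 UMIs per cell with a fixed seed.

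Named genes were MMP1, PDE1C and SRGN, the 12 highest and 8 lowest ratios common to both libraries, the 6 ratios that differed most between libraries in each direction, the 8 highest and 8 lowest D21 to D0 ratios in members, and up to 6 genes of each list. Genes with clone-type names, MT- genes, XIST and Y-linked genes were not named. Other genes in the text were chosen after their values were seen, and some genes that the rule names are not reported here. Positions are from GENCODE v29, which held 34616 of 36601 gene IDs (94.6%), and promoters from RefSeq (GRCh38.p14). The promoter table had no entry for MMP1 or SRGN. The computation was tested on simulated counts. Python 3.11.15, numpy 2.4.6, scipy 1.17.1 and pandas 2.3.3 were used. Of the alternatives tried, 12 were planned and 2 (4 matched cells per member, and each gene without the cell holding most of its UMIs) were chosen after seeing the data.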

Additional observations from a re-analysis of the deposited data

Results flagged for a closer look

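In 3 of the genes named by the rule, the ratio of members to matched cells passed a fold of 1.5 in opposite directions in the libraries. The difference was not tested. For MAGI1-AS1, a noncoding gene antisense to MAGI1, the log2 ratio was 1.47 higher at D21 than at D0 (ratios of 1.59 and 0.571, 0.331 to 0.965). For SLC37A2, a sugar phosphate transporter gene, it was 1.63 higher at D21 (1.51 and 0.486, 0.312 to 0.741). For IL7R, the interleukin-7 receptor gene, the D21 minus D0 difference was -1.37 (0.654 and 1.69, 1.10 to 2.63). All 3 genes were low at D0, between 6.08 and 17.7 CPM in members and matched cells.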

How the results depend on the processing

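The D0 results rest on 116 cells and change the most. Of 132 shares, counts and list medians recomputed under the alternatives, 74 stayed close and 58 moved. Of 1734 other medians and single genes, 1441 stayed close, 290 moved and 3 reversed. The reversed values were the log2 D21 to D0 ratio of FLG in members at a minimum of 5 MMP1 UMIs (-0.38) and the log2 ratio of PRSS2 at D0 at a minimum of 5 MMP1 UMIs (0.00) and with thinned cells (0.74). The cause was not tested. Fewer or shallower members and fewer measured genes are part of the construction of these settings.

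The shares of members, 1.55% and 12.9% with a ratio of 8.36, were 2.21% and 15.0% (6.78) with the UMI minimum at 20% of the percentile, 3.24% and 19.7% (6.08) with at least 1 MMP1 UMI, 1.15% and 10.1% with at least 3, 0.854% and 6.88% with at least 5, and 0.561% and 7.72% (13.8) with thinned cells. The D21 share was 11.9% without the 10% of cells with the most UMIs.

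The D0 counts of 258 genes higher and 388 lower were 119 and 152 with at least 1 MMP1 UMI, 595 and 600 with at least 5, 1349 and 1320 with thinned cells, 42 and 64 at a fold of 2, 123 and 178 at 20 CPM, 496 and 673 at 5 CPM, 537 and 614 without the deepest cells, and 149 and 245 against all cells without MMP1. The higher count alone was 449 with at least 3 MMP1 UMIs and 162 with 4 matched cells per member. The D21 counts of 215 and 139 were 417 and 355 with thinned cells, 61 and 25 at a fold of 2, 127 and 85 at 20 CPM, and 354 and 218 at 5 CPM. The D21 lower count alone was 72 with at least 1 MMP1 UMI, 210 with at least 5 and 227 without the deepest cells. The D21 against D0 counts of 328 and 478 were 1046 and 1316 with thinned cells, 54 and 79 at a fold of 2, and 171 and 299 at 20 CPM. The higher count alone was 173 with at least 1 MMP1 UMI and 568 at 5 CPM.

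The median log2 ratio of bone metastasis genes at D0, 1.07, was 0.84 with 4 matched cells and 0.73 at 20 CPM. That of collagens, -0.65 and -0.72, was -0.39 and -0.33 at 20 CPM. That of the CEMIP state at D0, -1.07, was -0.74 with 4 matched cells and -0.82 unmatched, and that of the AGR2 state at D21, 1.11, was 0.88 unmatched. PDE1C at D0 had too few UMIs for a value with thinned cells. No paired analysis was possible because each condition had 1 library.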
